A study of Homo sapiens with 6 samples.

Results

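Of the 18358 genes in the deposited table, 9 keratin genes were followed: KRT7, KRT8, KRT18, KRT19 and KRT20, the keratins of simple epithelia, and KRT4, KRT15, KRT23 and KRT80. They were taken by name, and all 9 were found and passed the filter on low counts. RNA-seq was made from ME180, an established human line derived from a metastasis of an epidermoid carcinoma of the cervix. In 3 of the libraries ME180 held the control vector, and the other 3 held a guide RNA against VPS13C and are labelled as its knockout. Cells of both groups had received 2 µM cisplatin over 48 h, a drug that damages DNA through platinum crosslinks, so the comparison is between cisplatin-treated populations, and untreated cells were not analysed here. The labels do not say whether the knockout cells were a clone or a pool, or whether replicates came from separate cultures, so each p-value reflects variation among these libraries only, and that variation may be technical.

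Keratins are the intermediate filament proteins of epithelial cells. A filament is built from pairs of 1 type I and 1 type II keratin, and a keratin without a partner is generally unstable as a protein. KRT8 (type II) and KRT18 (type I) form the pair of simple, single-layered epithelia, with KRT7, KRT19 and KRT20 added in particular ducts and glands. In layered epithelia KRT5 pairs with KRT14 or KRT15 in the basal layer, and KRT4 pairs with KRT13 above it in moist mucosa. Tumour pathology uses KRT7, KRT20 and KRT19 as markers of origin.

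The libraries held 14774065 to 15799149 counts. VPS13C RNA was at 48.1, 30.1 and 35.0 CPM (reads counted for a gene relative to the scaled library size) in vector replicates 1 to 3 and at 28.6, 18.6 and 23.7 CPM in knockout replicates 1 to 3. This difference did not pass the threshold (log2 fold change −0.67 ± 0.22 SE, edgeR quasi-likelihood adjusted p = 0.0513); over the alternative settings the adjusted p ranged from 4.84e-05 to 0.144, and 7 of 15 passed. Squamous markers were abundant, as the label of the line implies: the 7 of them summed to 9529 to 11504 CPM in vector and 17525 to 20851 CPM in knockout libraries. Of the 7, 5 were called higher (edgeR quasi-likelihood adjusted p under 0.05), beside 17.8% of all genes tested. General epithelial markers (CDH1, EPCAM, GRHL2, ESRP1 and CLDN4) summed to 840 to 955 CPM in vector and 754 to 873 CPM in knockout libraries. Of these 5, 1 fell (EPCAM) and 4 were not called, with a median log2 fold change of 0.0064, beside 17.4% of all genes lower. The 7 fibroblast markers in the table summed to 37.3 to 44.3 CPM and 47.7 to 50.5 CPM, mostly from COL1A1, and 5 of the 7 averaged under 1 CPM. DCN, another of the 7, rose from a mean of 0.188 to 3.78 CPM. Endocervical gland markers summed to 46.6 to 48.8 CPM and 53.8 to 57.6 CPM, mostly from PAX8 and ESR1, of which ESR1 rose. The gland mucin MUC5AC fell from a mean of 0.967 to 0.204 CPM, and MUC5B averaged 0.104 and 0.0904 CPM. Leukocyte markers summed to 71.9 to 86.0 CPM and 41.7 to 46.3 CPM, almost all from CD68, with PTPRC and CD3E near 0. Endothelial markers summed to at most 8.37 CPM in vector and 21.7 to 24.8 CPM in knockout libraries, largely from VWF, which rose, while CDH5 fell from a mean of 2.27 to 0.152 CPM. The part of these shifts in the keratin results was not tested. In bulk RNA, fewer cells of a kind and less RNA per cell cannot be told apart.

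In the knockout libraries 6 of the 9 keratins fell (KRT20, KRT7, KRT23, KRT18, KRT80 and KRT8), KRT15 and KRT4 rose, and KRT19 was not called. These calls come from an edgeR quasi-likelihood test over all 13717 genes with enough counts, at an adjusted p under 0.05. Among all genes tested 35.1% were called, 17.4% as lower and 17.8% as higher. The median log2 fold change was −0.64 for the 9 keratins and 0.00 over all genes. The vector and knockout ranges were separate for 8 of the 9 keratins, the same 8 that were called. Among all genes tested, called or not, this held for 48.5% (24% with lower and 24.5% with higher knockout libraries). The keratins were chosen with earlier results of these data known, so their share of calls is a description.

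**Figure D1:**
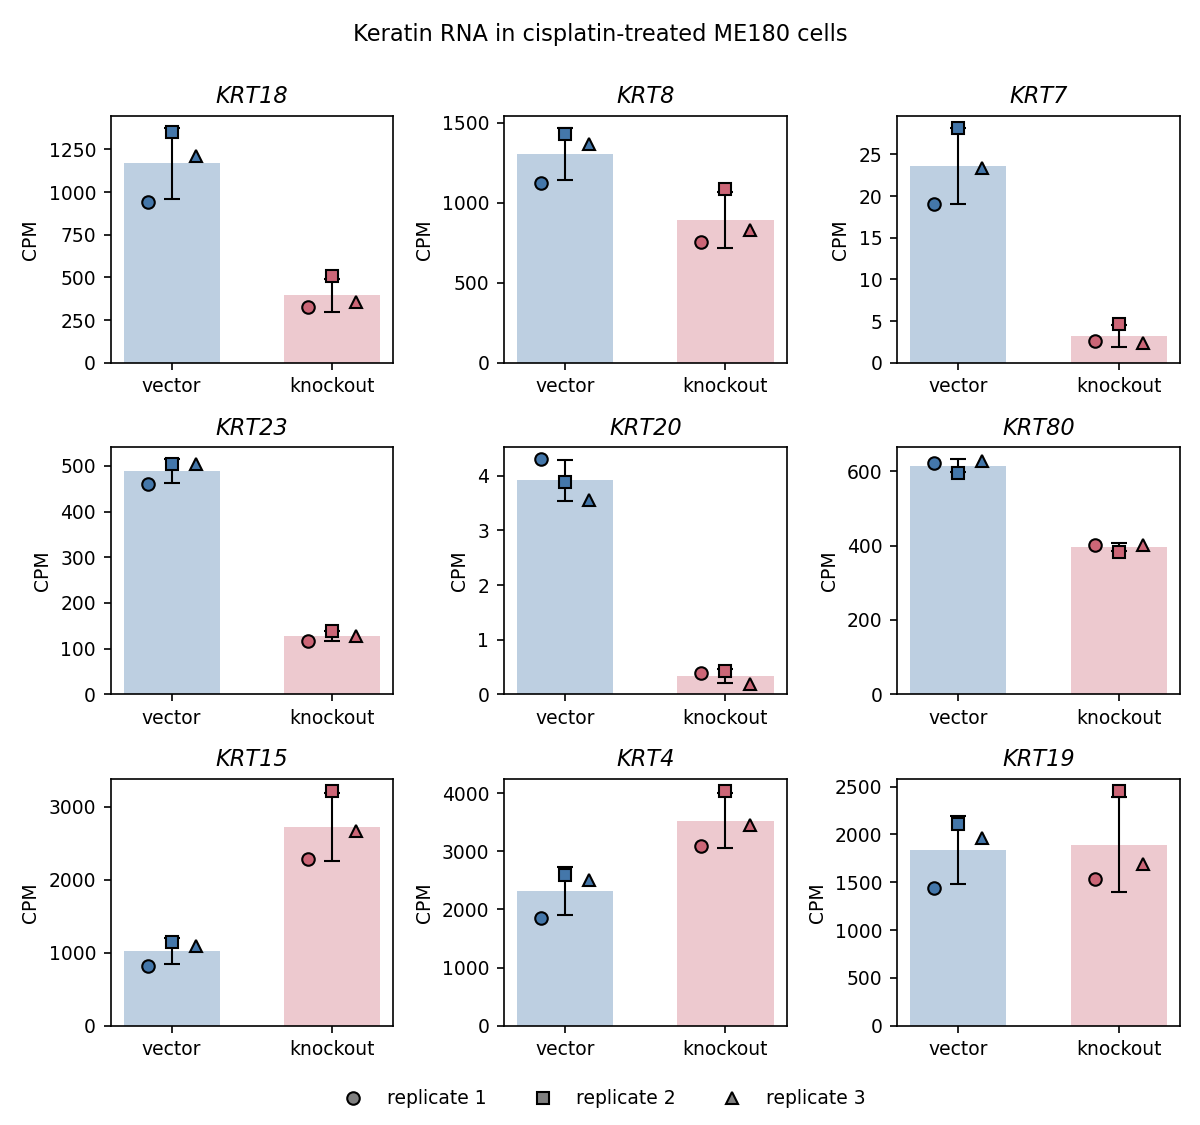
Level of each keratin in CPM (vertical axes, starting at 0) in the vector and knockout libraries. Bars are means of 3 libraries, error bars are SD and symbols mark the replicate number; KRT18 goes from a mean of 1168 to 396 CPM and KRT15 from 1019 to 2725 CPM, while the KRT19 groups overlap.

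KRT18, the type I member of the simple pair (gene 3875, GRCh38 chromosome 12, 52948855 to 52952906), had 941, 1352 and 1211 CPM in the vector libraries. In the knockout libraries it had 327, 507 and 355 CPM. Every knockout library lay far below every vector library, and in both groups replicate 2 was the highest and replicate 1 the lowest. The means were 1168 ± 209 and 396 ± 97.0 CPM (SD, n = 3 each), a 2.95-fold fall with a log2 fold change of −1.56 ± 0.22 SE (edgeR quasi-likelihood adjusted p = 0.00175).

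Its type II partner KRT8 (gene 3856, chromosome 12, 52897191 to 52949860) fell less, from 1123, 1432 and 1365 CPM to 755, 1087 and 829 CPM. The groups were separate, but knockout replicate 2 came within reach of vector replicate 1. The log2 fold change was −0.55 ± 0.18 SE (edgeR quasi-likelihood adjusted p = 0.0456). By the edgeR quasi-likelihood test, KRT8 lost its call when vector replicate 2 (adjusted p = 0.126) or 3 (0.140), or knockout replicate 1 (0.112) or 3 (0.145), was left out. It was also lost among genes with at least 10 CPM in 3 libraries (edgeR quasi-likelihood adjusted p = 0.0576).

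The balance within this pair differed between the groups. The ratio of KRT8 to KRT18, from the length-scaled FPKM values, was 0.904, 0.802 and 0.854 in the vector libraries and 1.75, 1.62 and 1.77 in the knockout libraries. KRT18 RNA was thus the more abundant of the pair in every vector library, and KRT8 RNA in every knockout library. The log2 ratio differed by 1.01 ± 0.06 SE, with p = 0.1 by exact permutation (two-sided), which 3 against 3 cannot go below (0.1 after Benjamini-Hochberg adjustment over the 3 keratin pairs compared). KRT8 and KRT18 lie beside each other on opposite strands, and rare KRT8 transcripts start inside KRT18, so that the annotated genes overlap. Of the 50-base words in annotated KRT18 transcripts 12.7% occur in KRT8 transcripts on the other strand, and 14.3% occur in 43 keratin pseudogenes. For KRT8 5.94% occur in KRT18 transcripts on the other strand, and 10.6% occur in 42 keratin pseudogenes. Counting every other annotated gene, 24.5% of the KRT18 words and 16.1% of the KRT8 words are shared. The strandedness of the libraries is not given in the sources used here, so part of the reads of either gene cannot be placed with certainty.

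**Figure D2:**
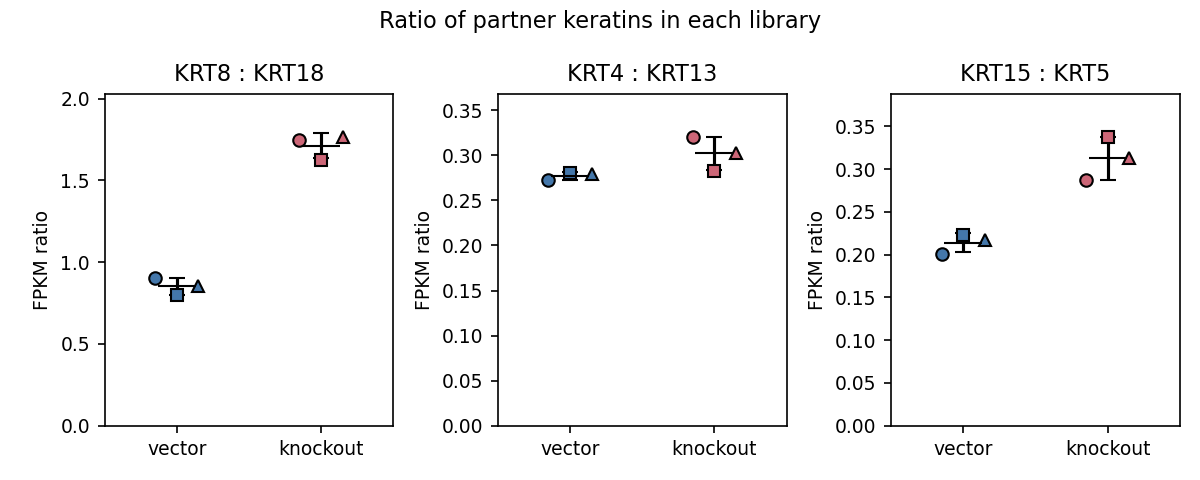
Ratio of FPKM values (vertical axes, starting at 0) of KRT8 to KRT18, KRT4 to KRT13 and KRT15 to KRT5 in each library (circle, square and triangle are replicates 1, 2 and 3), with mean and SD per group. The KRT8 to KRT18 ratio lies below 1 in the vector libraries (0.802 to 0.904) and above 1 in the knockout libraries (1.62 to 1.77).

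KRT8 was split among 3 annotated transcripts. The main one, NM_002273.4, had estimated counts of 18112, 21276 and 20829 in the vector libraries and 11359, 15254 and 12727 in the knockout libraries (log2 fold change −0.52 ± 0.17 SE, edgeR quasi-likelihood adjusted p = 0.258 over 40948 transcripts). The transcript NM_001256282.2 had 647, 794 and 659 against 113, 75.6 and 85.6. It was low in both groups, and its groups were far apart (log2 fold change −2.85 ± 0.21 SE, edgeR quasi-likelihood adjusted p = 0.00787). Its share of the KRT8 counts was 3.44%, 3.59% and 3.06% in the vector libraries and 0.988%, 0.493% and 0.667% in the knockout libraries (exact two-sided permutation p = 0.1). In GENCODE version 29 this transcript starts at 52926469, upstream of the start of the main transcript at 52906618.

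The start of NM_001256282 is the one for which RefSeq (GRCh38.p14) gives a promoter window of KRT8, chr12:52926420-52926719 on the minus strand, so the window is shown as the sequence around the KRT8 start whose transcript fell farthest. It holds 250 bases before and 50 after the start, written 5′ to 3′, and capitals mark CACCC, a core that Krüppel-like factors bind, on either strand (on the opposite strand it reads GGGTG).
KRT8: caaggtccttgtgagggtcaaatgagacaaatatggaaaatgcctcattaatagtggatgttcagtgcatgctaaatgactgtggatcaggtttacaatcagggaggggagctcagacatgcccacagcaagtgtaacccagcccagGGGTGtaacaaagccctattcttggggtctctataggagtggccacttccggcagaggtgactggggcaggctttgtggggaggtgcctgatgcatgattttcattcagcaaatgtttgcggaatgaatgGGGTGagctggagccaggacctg
Windows were searched on both strands for TATAA (the TATA box), GGGCGG (SP1), TGANTCA (AP-1), CACCC and TTTAT (caudal-type factors such as CDX2). TATAA and TTTAT can overlap. Of 35116 RefSeq promoter windows of the same length 20.4% hold TATAA, 45% GGGCGG, 7.71% TGANTCA, 59.9% CACCC and 34.9% TTTAT. The KRT8 window holds CACCC at positions −103 and 28 from the start, both on the opposite strand, and none of the other 4 words. Windows were found for KRT8, KRT20 and KRT4.

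**Figure D3:**
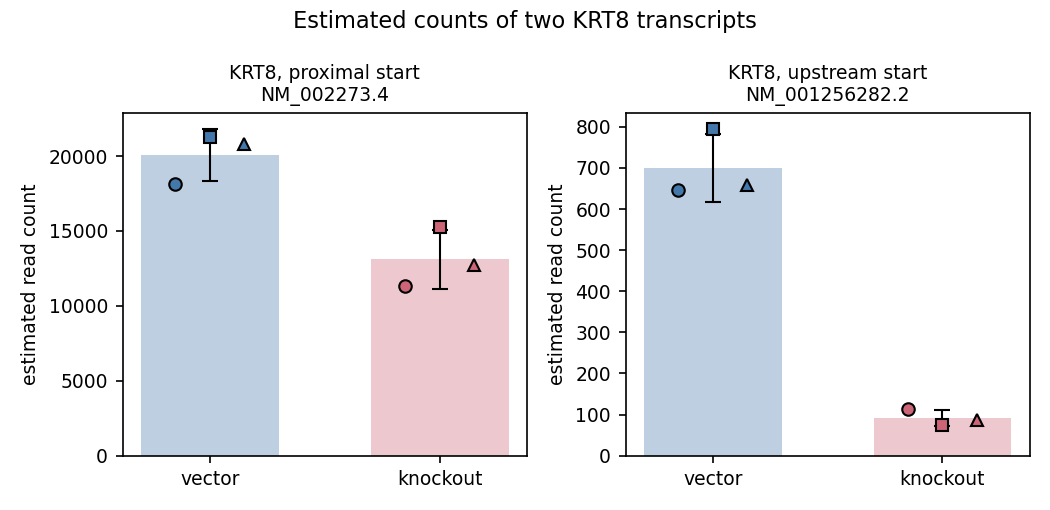
Estimated read counts (vertical axes, starting at 0) of the main KRT8 transcript and of the transcript with an upstream start in the 3 vector and 3 knockout libraries (circle, square and triangle are replicates 1, 2 and 3); bars are means and error bars SD. The upstream transcript goes from between 647 and 794 to between 75.6 and 113, and the main one from between 18112 and 21276 to between 11359 and 15254.

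KRT18 counts came almost wholly from NM_000224.3 (98.6% to 99.3% in the vector libraries, 95.9% to 97.8% in the knockout libraries). That transcript fell (log2 fold change −1.60, edgeR quasi-likelihood adjusted p = 0.0338). The minor NM_199187.1 had 213, 149 and 225 counts against 109, 291 and 219, and its groups overlapped. Among all members 20 of 21 transcripts were tested, of which 8 were called lower and 1 higher, while 2.25% of all transcripts tested were called, 1.08% as lower. These transcript calls were fragile: with 1 library left out, 0 to 2 member transcripts were called.

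KRT19, the smallest keratin and a type I keratin of ducts and of many carcinomas (gene 3880, chromosome 17, 41523617 to 41528308), did not follow KRT8 and KRT18. It had 1438, 2113 and 1960 CPM with the vector and 1534, 2456 and 1686 CPM with the knockout. The groups overlapped over most of their range. The log2 fold change was 0.04 ± 0.23 SE (edgeR quasi-likelihood adjusted p = 0.907). Its sign turned in 4 of 15 alternative settings, where it lay between −0.19 and 0.00.

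KRT7, the type II keratin of ducts and glands (gene 3855, chromosome 12, 52233243 to 52255853), was sparse and fell farther than KRT18. It had 19.1, 28.2 and 23.4 CPM with the vector and 2.56, 4.68 and 2.33 CPM with the knockout. The lowest vector library stood well above the highest knockout library. KRT7 had a log2 fold change of −2.89 ± 0.28 SE, a 7.39-fold fall of the mean (edgeR quasi-likelihood adjusted p = 4.32e-04). Most KRT7 reads were assigned to the predicted transcript XM_017019294.1, which had 239, 392 and 332 estimated counts against 31.8, 65.0 and 34.9. Of the KRT7 words 5.54% occur on the other strand in KRT7-AS, an antisense gene.

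KRT20, a type I keratin of intestinal and urothelial epithelium (gene 54474, chromosome 17, 40875889 to 40885242), was near the limit of detection. It had 72, 60 and 56 counts in the vector libraries and 6, 6 and 3 in the knockout libraries, or 4.30, 3.89 and 3.55 CPM and 0.394, 0.425 and 0.194 CPM. The counts were few but did not overlap, and 188 counts against 15 gave an 11.7-fold ratio of vector to knockout with a 95% counting interval of 6.92 to 21.4. That interval comes from an exact binomial test and covers counting error only. The log2 fold change was −3.52 ± 0.28 SE (edgeR quasi-likelihood adjusted p = 1.62e-04). None of its 50-base words occur in another annotated gene. Its RefSeq window, chr17:40885193-40885492 on the minus strand, is shown for the farthest fall, with the words found in capitals.
KRT20: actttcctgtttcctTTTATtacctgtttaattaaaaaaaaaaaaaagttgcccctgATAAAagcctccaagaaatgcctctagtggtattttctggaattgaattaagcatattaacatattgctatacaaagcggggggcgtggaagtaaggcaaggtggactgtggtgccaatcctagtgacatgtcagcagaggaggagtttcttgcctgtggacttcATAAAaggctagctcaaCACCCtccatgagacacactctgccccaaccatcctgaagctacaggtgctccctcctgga
The window holds TTTAT on the gene's strand at −235 and on the opposite strand at −193 and −28, and CACCC at −11. It holds no TATAA word and neither the SP1 nor the AP-1 word. Only exact words were searched for, so other spellings of the TATA box would be missed. At −28 the gene's own strand reads ATAAA.

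KRT23, a type I keratin known from gastrointestinal and pancreatic epithelium (gene 25984, chromosome 17, 40922700 to 40937646), had the smallest p of the 9. It had 459, 504 and 504 CPM in the vector libraries and 117, 139 and 126 CPM with the knockout. Libraries within a group lay close together, with means of 489 ± 25.6 and 128 ± 10.8 CPM (SD, n = 3 each). KRT23 had a log2 fold change of −1.94 ± 0.11 SE, a 3.84-fold fall (edgeR quasi-likelihood adjusted p = 4.98e-05). Its main transcripts NM_015515.5 and NM_001282433.2 had log2 fold changes of −1.94 and −1.96, and their shares of the gene overlapped between the groups.

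KRT80, a type II keratin found in many epithelia (gene 144501, chromosome 12, 52168996 to 52192014), fell by a smaller factor with little spread. It had 624, 595 and 627 CPM in the vector libraries and 402, 383 and 402 CPM with the knockout. Mean levels were 615 ± 17.6 and 396 ± 10.9 CPM (SD, n = 3 each). KRT80 had a log2 fold change of −0.64 ± 0.09 SE (edgeR quasi-likelihood adjusted p = 0.00216). Both main transcripts fell, NM_182507.3 with a log2 fold change of −0.60 and NM_001081492.2 with −0.66 (edgeR quasi-likelihood adjusted p = 0.0327 and 0.0383).

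KRT15, a type I keratin of basal cells of layered epithelia (gene 3866, chromosome 17, 41513745 to 41518890), rose most. It had 817, 1148 and 1092 CPM with the vector and 2284, 3220 and 2671 CPM with the knockout. Every knockout library lay far above every vector library. The means were 1019 ± 177 and 2725 ± 470.5 CPM (SD, n = 3 each), a 2.68-fold rise with a log2 fold change of 1.42 ± 0.19 SE (edgeR quasi-likelihood adjusted p = 0.00163). KRT5, its basal type II partner, rose less, with a log2 fold change of 0.88. The FPKM ratio of KRT15 to KRT5 was 0.201, 0.223 and 0.217 in the vector libraries and 0.288, 0.338 and 0.313 in the knockout libraries (log2 difference 0.55 ± 0.08 SE, exact two-sided permutation p = 0.1, adjusted 0.1).

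KRT4, the type II keratin of upper layers of moist stratified mucosa (gene 3851, chromosome 12, 52806549 to 52814116), had 1853, 2597 and 2504 CPM with the vector and 3097, 4043 and 3453 CPM with the knockout. The groups were separate, with knockout replicate 1 nearest to the vector libraries. KRT4 had a log2 fold change of 0.61 ± 0.18 SE (edgeR quasi-likelihood adjusted p = 0.0382). By the edgeR quasi-likelihood test, KRT4 lost its call when vector replicate 1 (adjusted p = 0.0640), 2 (0.0573) or 3 (0.0934), or knockout replicate 2 (0.0714) or 3 (0.106), was left out. KRT13, its type I partner, had a log2 fold change of 0.50 and was not called (edgeR quasi-likelihood adjusted p = 0.108). The FPKM ratio of KRT4 to KRT13 was 0.272, 0.281 and 0.279 in the vector libraries and 0.321, 0.283 and 0.302 in the knockout libraries, a log2 difference of 0.12 ± 0.05 SE (exact two-sided permutation p = 0.1, adjusted 0.1). The RefSeq window of KRT4, chr12:52814067-52814366 on the minus strand, is shown for a riser beside the windows of KRT8 and KRT20, which fell.
KRT4: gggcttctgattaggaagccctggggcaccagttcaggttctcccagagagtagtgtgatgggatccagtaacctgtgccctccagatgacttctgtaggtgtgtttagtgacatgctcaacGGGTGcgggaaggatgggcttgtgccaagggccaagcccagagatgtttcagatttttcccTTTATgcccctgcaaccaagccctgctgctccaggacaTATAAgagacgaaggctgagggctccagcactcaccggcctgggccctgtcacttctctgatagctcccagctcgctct
Unlike the other 2 windows it holds the exact word TATAA, at −29 from the start on the gene's strand. It also holds TTTAT at −67 and, on the opposite strand, CACCC at −128, and again neither the SP1 nor the AP-1 word.

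The order of the 9 keratins by length-scaled level (TPM, abundance relative to all transcripts of a library) differed between the groups. In the vector libraries it ran KRT19 (mean 2291 TPM), KRT4 (1742), KRT18 (1429), KRT8 (1217), KRT15 (983), KRT23 (491), KRT80 (244), KRT7 (27.3) and KRT20 (3.66), with no overlap of ranges between neighbours. In the knockout libraries KRT4 (2645 TPM), KRT15 (2623) and KRT19 (2328) led, and neighbours among these 3 overlapped. KRT8 (818 TPM) and KRT18 (479) followed, then KRT80 (156) and KRT23 (127), which overlapped, and KRT7 (3.71) and KRT20 (0.307). KRT15 thus moved from the fifth place to the second, and KRT18 from the third to the fifth.

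**Figure D4:**
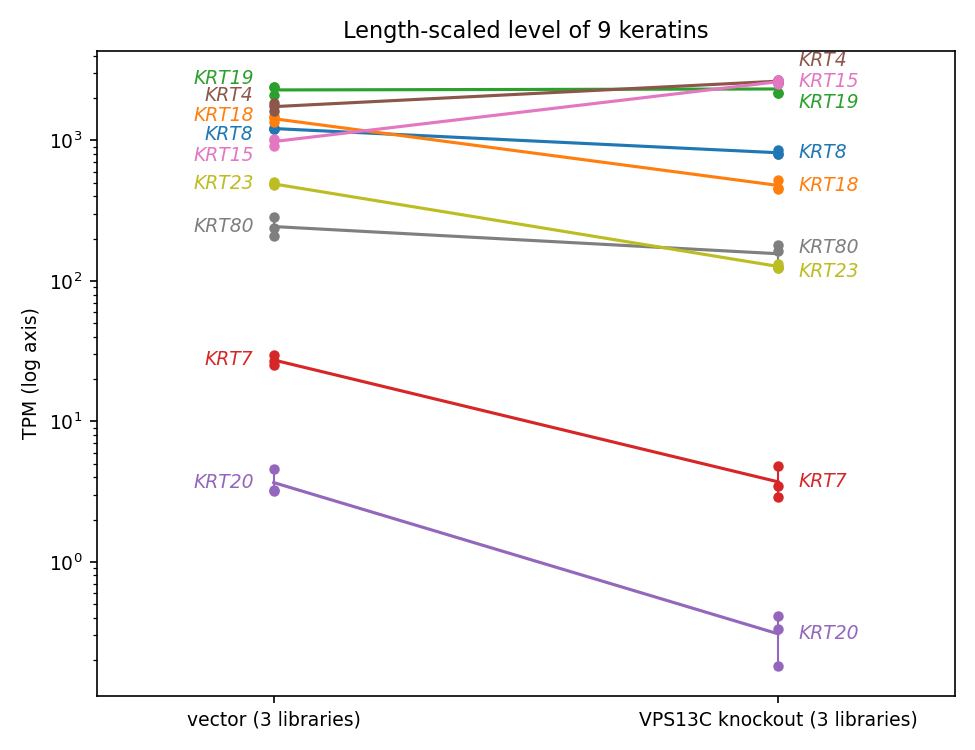
Length-scaled level in TPM (vertical log axis) of each keratin in the 3 vector and 3 knockout libraries; points are libraries, vertical lines their range, and sloping lines join group means. KRT15 goes from 983 to 2623 TPM and KRT18 from 1429 to 479 TPM.

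The summed level of the 9 keratins was 8003, 8576 and 8704 TPM in the vector libraries and 8962, 9458 and 9118 TPM in the knockout libraries. The 5 simple-type keratins alone summed to 4687, 5118 and 5099 TPM against 3459, 3985 and 3442 TPM, most of the latter KRT19. All 54 keratin genes of the table together had a mean of 25441 ± 958 TPM in the vector and 34885 ± 223 TPM in the knockout libraries (SD, n = 3 each). The share of the simple-type keratins in all keratin TPM was therefore 19.2%, 19.8% and 19.5% in the vector libraries and 9.99%, 11.4% and 9.81% in the knockout libraries. The sums are descriptions, since the genes in them had been chosen. Of 45 other keratin genes 27 were tested, of which 17 rose, 4 fell and 6 were not called, with a median log2 fold change of 1.25. The shares over all genes tested were 17.8% higher and 17.4% lower.

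Most keratin genes lie in a type II cluster on chromosome 12 and a type I cluster on chromosome 17. On chromosome 12, KRT80 and KRT7 open the cluster and KRT8 and KRT18 close it, and all 4 fell. Falls were not confined to these: KRT86, next to KRT7, and KRT75, farther inside, fell too (log2 fold changes −1.39 and −1.59). Between KRT86 and KRT75, KRT85 and KRT84 rose (log2 fold changes 5.06 and 6.05). Every tested keratin from KRT6B to KRT78 rose except KRT3. KRT4 lies inside between KRT3 (log2 fold change 0.13, not called) and KRT79, which was too low to be tested. On chromosome 17, KRT20 and KRT23 are followed by KRT39 and KRT40, which fell too, with log2 fold changes of −0.92 and −1.86. KRT15 and KRT19 are neighbours 4727 bases apart, and KRT15 rose while KRT19 was not called. Farther along, KRT9 (log2 fold change 4.52), KRT14 (1.34) and KRT16 (2.06) rose, and KRT17 (−0.23) was not called. These neighbours were named after their values were seen.

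**Figure D5:**
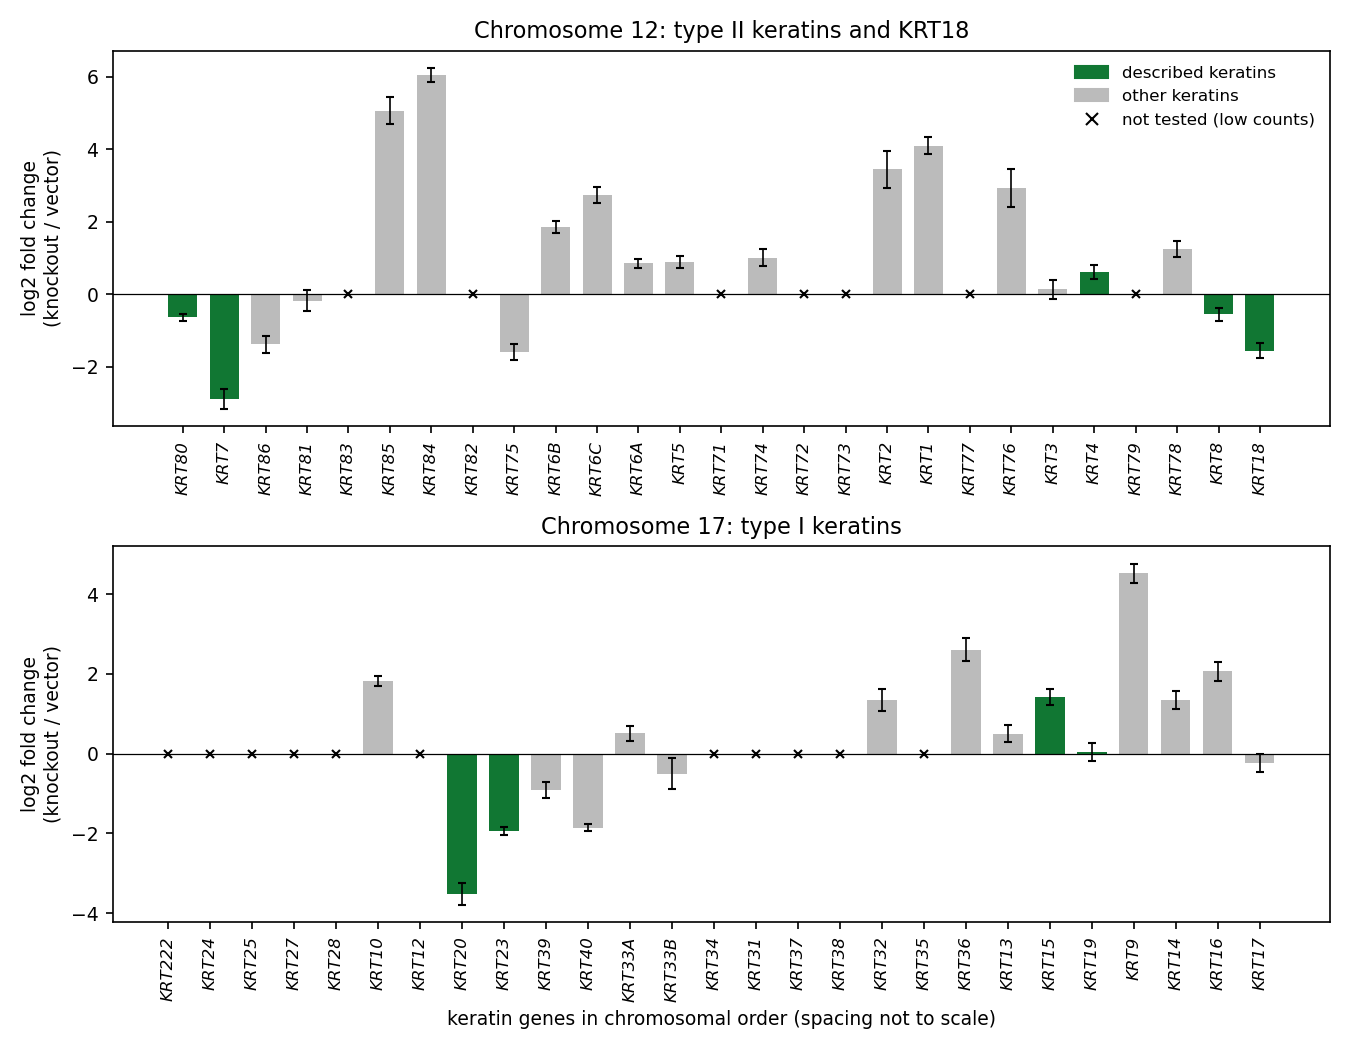
Log2 fold change, knockout over vector (vertical axes), of keratin genes in their order along chromosomes 12 and 17; green bars are the 9 keratins described, grey bars other keratins, error bars are SE and crosses mark genes not tested. KRT80, KRT7, KRT8 and KRT18 stand at the outer ends on chromosome 12, and KRT20 and KRT23 stand next to KRT39 and KRT40 on chromosome 17.

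Libraries within a group differed in a pattern that many keratins shared. In both groups 7 of the 9 keratins were highest in replicate 2, and 7 were lowest in vector replicate 1. Keratin messages are short: the lengths implied by the deposited values were 1135 to 1886 bases for 8 of them and 3636 for KRT80. Genes under 2000 bases as a whole lay 0.14 and 0.20 above their group mean (median, log2) in vector and knockout replicate 2, and −0.20 and −0.15 from it in replicate 1 of each. With the trend on gene length removed from each library, 8 of the 9 keratins were again called. Calls rose over all genes in that setting, to 6002 of 12652 tested against 4821 of 13717 in the main one. The log2 fold changes were −1.55 for KRT18, −0.54 for KRT8, 0.61 for KRT4 and 0.05 for KRT19 (edgeR quasi-likelihood adjusted p = 1.64e-05, 0.00131, 0.00183 and 0.728).

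Of 31 other genes of simple and glandular epithelium 20 were tested, and 2 rose, 5 fell and 13 were not called, with a median log2 fold change of −0.28. The share called is near the 35.1% of all genes. The 2 higher became 1 without vector replicates 2 or 3 or knockout replicates 1 or 3, and the 5 lower became 3 without knockout replicate 3. GATA6, a transcription factor of endoderm, fell from 20.1 ± 1.24 CPM to a range of 7.31 to 7.69 CPM (log2 fold change −1.42), and EPCAM, a surface adhesion protein of simple epithelia, from 171 ± 7.23 to 103 ± 5.47 CPM. ELF3, an epithelial ETS factor, fell from 146 ± 9.35 to 89.4 ± 7.27 CPM, while AGR2, a protein folding factor of mucous cells, rose from 0.670 ± 0.0626 to 17.9 ± 2.32 CPM (SD, n = 3 each). Their edgeR quasi-likelihood adjusted p lay between 1.69e-05 and 0.00210.

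Of 17 genes that attach or organise keratin filaments 7 rose, 1 fell and 9 were not called, with a median log2 fold change of 0.36, where 17.8% of all genes were higher and 17.4% lower. PKP1, a desmosomal plakophilin, rose from 302 ± 13.2 to 635 ± 5.78 CPM, and the plakin EVPL from 119 ± 14.3 to 235 ± 24.7 CPM. DSP, the plakin that ties keratin to desmosomes, rose from 491 ± 66.8 to 918 ± 117 CPM, and CSNK1A1, a kinase that acts on keratin filaments, from 408 ± 28.6 to 595 ± 47.0 CPM (SD, n = 3 each). PLEC, a plakin of hemidesmosomes and the 1 member that fell, was named after its values were seen (log2 fold change −0.36, edgeR quasi-likelihood adjusted p = 0.0432). Without vector replicates 2 or 3 or knockout replicates 1 or 3, and with no low-count filter, 0 genes of the list were called lower.

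Among intermediate filament genes other than keratins 9 of 16 were tested, and 2 rose, 3 fell and 4 were not called (median log2 fold change 0.37), against 17.8% higher and 17.4% lower among all genes. The neurofilament gene NEFL rose from 82.6 ± 2.20 to 188 ± 8.59 CPM and NES, which encodes nestin, from 4.24 ± 0.718 to 9.42 ± 1.30 CPM. LMNB2, a nuclear lamin, fell from 145 ± 3.26 to 94.9 ± 2.23 CPM and PRPH, which encodes peripherin, from 8.31 ± 2.38 to 2.67 ± 0.612 CPM (SD, n = 3 each). VIM, the mesenchymal filament gene, averaged 0.375 and 0.334 CPM and was not tested.

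Transcription factors reported to act on simple keratin genes were also counted: of 24 tested of 27, 6 rose, 7 fell and 11 were not called (median log2 fold change 0.04), beside 17.8% higher and 17.4% lower among all genes. The 6 higher became 3 without vector replicate 3, knockout replicate 1 or knockout replicate 3. JUN, an AP-1 subunit, fell from 133 ± 10.2 to 58.4 ± 3.34 CPM. FOSL1, another subunit, had 132 ± 16.4 CPM against 56.9 ± 4.43 and fell too. GRHL3, a grainyhead-like factor of surface epithelia, rose from 41.5 ± 1.41 to 101 ± 6.09 CPM (SD, n = 3 each). ELF3 also stands on this list.

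Among the 9 keratins followed, KRT4 and KRT15 were the type II and type I members with the highest mean CPM over all 6 libraries. KRT5, KRT13 and KRT17, outside the 9, were higher. For KRT4, KRT15 and KRT23 the genes with the most similar pattern were looked up. Pearson's correlation of log2 CPM over the 6 libraries was used, among 10237 genes with a mean of at least 10 CPM. SDC1, BCAS3 and MTCH2 were nearest to KRT4, with r from 0.9985 to 0.9991. PCLAF, DBI and RAPGEFL1 were nearest to KRT15, and VOPP1, C1QTNF6 and TINAGL1 to KRT23. KRT19 was close behind KRT15 in CPM and above it per length in the vector libraries. With 2 groups of 3 libraries such values are common: 673, 858 and 817 genes had an r of at least 0.95 with KRT4, KRT15 and KRT23 in that order.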

How the data were processed

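RNA-seq of 6 libraries of cisplatin-treated ME180 cells, 3 vector and 3 VPS13C knockout, was analysed. Reads were single-end, 50 bases long, from the DNBSEQ platform (per the labels' protocols). The submitters' processing notes name hg38. Aligner, counter and strandedness: not given in the sources used here. Deposited tables, per the file headers, gave for each gene and transcript an expected count (estimated reads, fractional where shared), FPKM, TPM and a normalized read count signal. The authors scaled FPKM for length and library size and TPM also to a fixed total per library. The signal deposited by the authors, and their group means, were not used. Each library column was matched to its sample by title, and 0 columns were left unmapped.

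Expected counts were rounded, kept where filterByExpr passed them (minimum count 10), normalized by TMM and compared between knockout and vector in edgeR 4.0.16 with its robust quasi-likelihood F-test (R 4.3.3). A gene or transcript was called where its p, adjusted by Benjamini-Hochberg over all tested, was under 0.05. SE was derived from the fold change and F. CPM used TMM-scaled library sizes. The precision of low counts is limited by depth, and counting intervals (95%) cover counting error only. Keratin ratios used FPKM. Gene lengths were derived from counts and FPKM. Shared 50-base words and transcript starts came from GENCODE version 29, promoter windows and gene positions from RefSeq GRCh38.p14. The steps were tested on simulated data. The gene step recovered most of the large fold changes put in, and the transcript step called none of those put in, so a transcript that was not called may still differ.

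The KRT4 to KRT13 and KRT15 to KRT5 ratios were added after the design was set. The keratins, gene lists and tests were chosen with earlier results of these data known. Named genes were the 9 keratins, VPS13C and, from each list, up to 4 called genes with the smallest p. Also named were the 3 genes most alike to certain of the 9 keratins. These were the type I and the type II member with the highest mean CPM over all libraries (not per length) and the member with the smallest p. Cell type markers, VIM, KRT7-AS and keratins outside the 9 were named beyond these rules. Other named genes are marked. Alternatives were RLE factors, library size only, DESeq2 1.42.0, every gene with a count (total of 1 or more), 10 CPM or more in 3 libraries, a replicate block, limma 3.58.1 on log2(FPKM + 1) and log2(FPKM + 0.1), a loess correction (span 0.4) for gene length in every library (lengths were had for 92.2% of tested genes), and leaving out each library. Figures were drawn with matplotlib 3.10.9.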

Additional observations from a re-analysis of the deposited data

How the results depend on the processing

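KRT7, KRT15, KRT18, KRT23 and KRT80 kept their direction and their call in all 15 alternatives, and KRT20 in the 14 in which it was tested, since a filter of 10 CPM in 3 libraries removes it. KRT8 and KRT4 kept their direction in all 15 and lost their call in 5 each. The log2 fold change of KRT19 turned to −0.0027 with limma on log2(FPKM + 1) or log2(FPKM + 0.1), and to between −0.19 and −0.11 without knockout replicate 2 or vector replicate 1. With 1 library left out it ranged from −0.19 to 0.16. Of the 9 keratins 6 to 8 were called throughout. With the replicate number as a block 7939 genes were called, 4049 higher and 3890 lower, against 4821, 2440 and 2381 without it, and 226 transcripts against 921. With the block the glandular list had 4 higher and 11 lower genes, the transcription factors 10 higher and the other filament genes 5 higher. The other filament genes also had 4 higher under DESeq2 or with the length trend removed, and 1 with the filter of 10 CPM. The block changed the call of none of the 9 keratins. Same-numbered libraries had correlated deviations for numbers 1 and 2 (r = 0.724 and 0.754 across genes) and not for number 3 (r = −0.276), so the numbers were not taken as pairs. With 1 library left out, 3026 to 5043 genes were called (1551 to 2552 higher, 1475 to 2491 lower) and 17 to 294 transcripts, with the low gene counts of 3103 and 3026 without vector replicate 3 and knockout replicate 3. The log2 difference of the KRT8 to KRT18 ratio kept its sign without each library. At 15 counts in the knockout libraries together, the size of the fall of KRT20 is limited by depth, and it was −1.55 on the log2(FPKM + 1) scale, where a pseudocount shrinks low values.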
